A study of Ovis aries with 9 samples.

Results

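A set of 10 neuropeptide genes of the hypothalamus were examined in sheep around the first estrus. They were the feeding peptides NPY, AGRP, POMC, CARTPT, HCRT, PMCH and GAL and the releasing or release-inhibiting hormones SST, TRH and CRH. The members were given by name, and each was found in the deposited expression table through its RefSeq symbol, so 10 of the 21284 annotated genes with a measured transcript were used. The table gives FPKM, a count of fragments scaled to the length of the transcript and to the size of the library, and the FPKM of all curated and predicted RefSeq transcripts of a gene were summed. Hypothalamic tissue came from 9 Dolang ewes, a local Xinjiang breed, with 3 animals per stage and 1 library per animal. The prepuberty ewes (120 to 121 days old) were calm and refused rams, the puberty ewes (130 to 131 days old) showed estrus for the first time, and the postpuberty ewes (150 to 151 days old) were calm again. All ewes were untreated, healthy and kept under the same conditions. Stage and age therefore cannot be told apart, and the tissue was bulk hypothalamus in which fewer cells of a type and less RNA per cell cannot be told apart either.

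Neuropeptide genes are transcribed in small, scattered groups of neurons, and their precursors are cut into active peptides inside dense-core vesicles. In the arcuate nucleus, neurons that make NPY and AGRP promote feeding, while neurons that make POMC and CARTPT restrain it, and both kinds report energy reserves to the reproductive axis. CRH and TRH neurons of the paraventricular nucleus drive the adrenal and thyroid axes, SST of the periventricular nucleus restrains growth hormone, and the lateral hypothalamus holds the HCRT (orexin) and PMCH (melanin-concentrating hormone) neurons.

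One library stood apart before any gene was considered. Puberty 2 had a summed FPKM of 377780 over all genes, against 228754 to 260446 in the other 8 libraries, and 10970 genes with an FPKM of at least 0.5, against 12985 to 13687. Its Spearman correlation with the others across genes was 0.678 to 0.729, whereas the other 8 libraries correlated at 0.849 to 0.954 among themselves. Its summed neuron markers were 313 FPKM, the lowest of the 9. The stage differences of the members are therefore given with and without Puberty 2, and correlations across libraries use the other 8 unless stated. The tissue label was checked against defining genes. GNRH1, the gonadotropin-releasing hormone gene, was listed at 0 in all 9 libraries, as was the arcuate factor BSX, and GHRH was above 0 in 1 library. The hypothalamic factors NKX2-1, SIM1 and RAX had means of 0.0413, 0.0227 and 0.0318 FPKM. Of the other factors listed, ARNT2, POU3F2, TBX3, OTP, NHLH2, LHX9 and ISL1 had means of 12.1, 2.6, 1.3, 1.27, 0.801, 0.626 and 0.2 FPKM. The hypothalamic peptide genes AVP and OXT had means of 2.47 and 1.4 FPKM. Some genes of neighbouring tissue varied widely. The choroid plexus gene TTR lay between 9.07 and 7594 FPKM, and the cortical and thalamic transporter SLC17A7 between 0.483 and 51.7 FPKM. Others did not, as PRKCD lay between 1.15 and 3.64 FPKM and TBR1 reached at most 0.0454 FPKM. The part of dissection in the results below was not tested.

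The 10 genes ran from abundant to barely detected. By the median of the 8 libraries without Puberty 2, SST led with 31.3 FPKM, followed by TRH at 6.11, NPY at 5.62, POMC at 4.24, CRH at 2.73 and CARTPT at 2.19 FPKM. HCRT had a median of 0.557 FPKM, and PMCH, AGRP and GAL had 0.117, 0.0853 and 0.0663 FPKM. SST exceeded TRH in 8 of 8 libraries, by 2.14 ± 1.77 on the log2(FPKM + 1) scale (SD, n = 8). CARTPT exceeded HCRT in 7 of 8 libraries, by 1.11 ± 0.85. The order within the middle group was not fixed, as TRH exceeded NPY in 5 of 8 libraries, NPY exceeded POMC in 4 of 8 and CRH exceeded CARTPT in 5 of 8. The ranges of all neighbours in this order overlapped. POMC, CARTPT, SST and TRH reached 0.5 FPKM in all 9 libraries. SST stood at the 95.3rd percentile of all genes by mean, CRH at the 86.7th, TRH at the 81.4th, POMC at the 78.2nd and NPY at the 74.3rd, whereas AGRP stood at the 22.9th. The place of CRH came from Prepuberty 1, without which its mean stood at the 58.8th percentile.

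**Figure D1:**
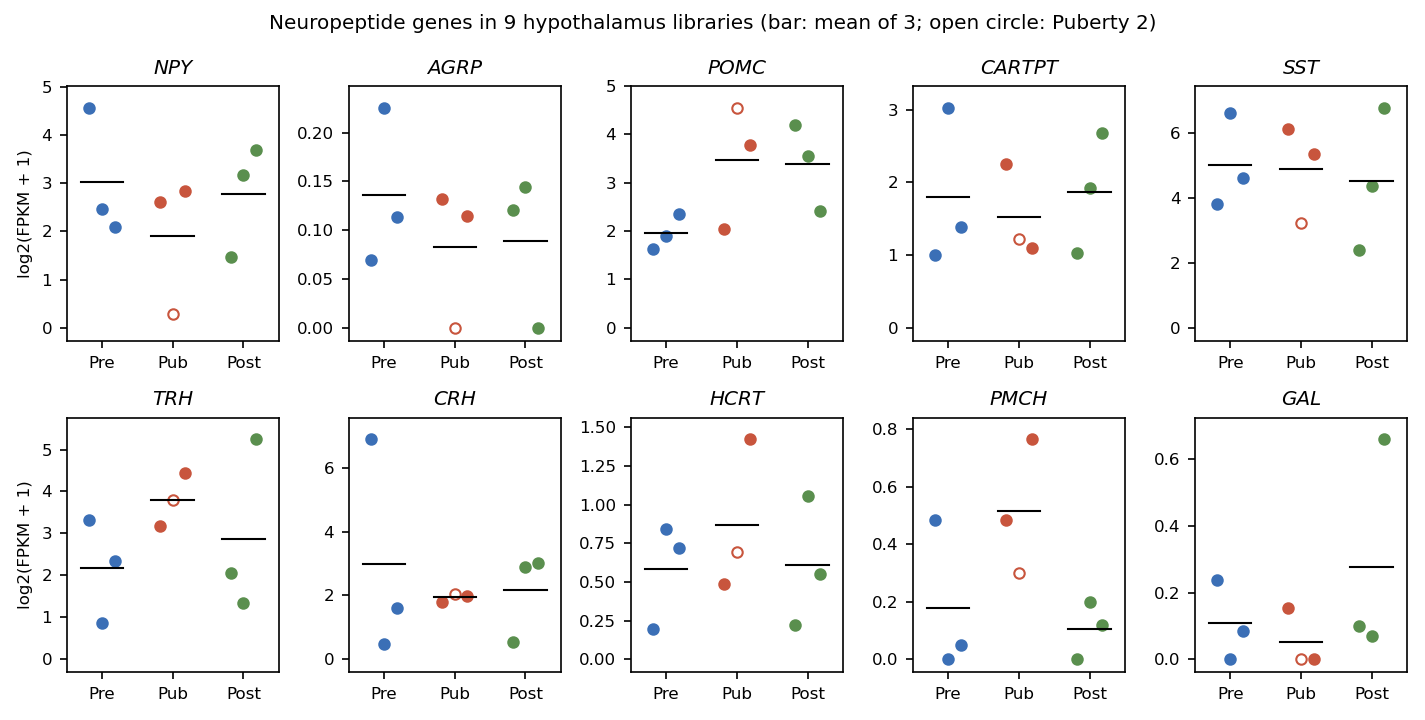
Each panel plots 1 gene, with stage on the x axis and log2(FPKM + 1) on the y axis, which has its own scale in each panel. Points are single libraries, bars are means of 3 libraries and the open circle is Puberty 2. SST has the highest values, AGRP lies below 0.5 FPKM in every library, and the CRH value of Prepuberty 1 stands far above the other 8.

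Of the 10 genes, 7 had a mean of at least 0.5 FPKM in at least 1 stage and were tested with 14238 genes in all. AGRP, PMCH and GAL were not tested in the fit of 9 libraries. No member was called at an adjusted p below 0.05 and a log2 difference of at least 1 in any of the 3 stage comparisons (limma, Benjamini-Hochberg over all genes). The background gave the same count, since 0 genes (0.0%) were called in each comparison. At an unadjusted p below 0.05, 1.82% of all genes passed for puberty versus prepuberty, 2.14% for postpuberty versus puberty and 0.815% for postpuberty versus prepuberty, and 1, 0 and 0 of the 7 members did. Libraries of the compared stages did not overlap for 5.16%, 7.32% and 4.57% of all genes and for 0, 0 and 1 of the 7. The median log2 difference of the 7 was -0.12, -0.07 and 0.02 in that order, beside -0.14, 0.19 and 0.05 over all genes. Without Puberty 2 the median of the same 7 was 0.37, 0.06 and 0.02, beside 0.02, 0.03 and 0.05 over all genes. The member medians of both comparisons with puberty thus turned in sign. Without Puberty 2, 14209 genes and 8 members were tested, and again 0 members and 0 genes were called (0.0%), with unadjusted shares of 1.66%, 2.11% and 1.87% of all genes. Of the 7 members tested before, 0, 0 and 1 passed unadjusted. The 8th member was PMCH, which entered only through its puberty level and is not counted.

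**Figure D2:**
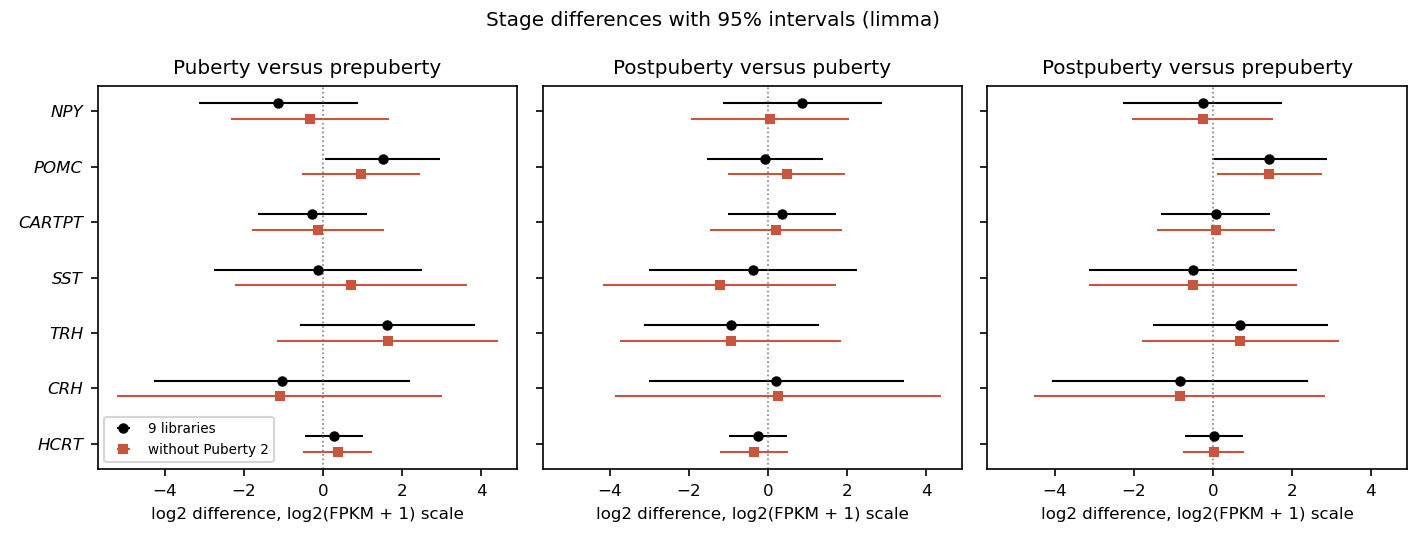
For the 7 tested genes, the x axis gives the log2 difference between stages on the log2(FPKM + 1) scale, with 95% intervals from limma. Black circles use 9 libraries and red squares leave out Puberty 2. All intervals span 0 except 2 for POMC, puberty versus prepuberty with 9 libraries and postpuberty versus prepuberty without Puberty 2, and those of CRH and SST are the widest.

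The spread between ewes of the same stage was wide for these genes. After stage means were removed from the 8 libraries, the SD of CRH was 2.34 on the log2(FPKM + 1) scale, which placed it at the 99.9th percentile of all tested genes. SST followed with 1.67 (99.5th percentile), TRH with 1.58 (99.3rd), NPY with 1.12 (97.5th), CARTPT with 0.93 (95.2nd) and POMC with 0.82 (92.9th), while HCRT had 0.46 (73.4th). This scale narrows the spread of low genes such as HCRT. Over the 8 libraries, with stage means kept, HCRT spanned 11.7-fold, beside 8.34-fold for POMC and 7.15-fold for CARTPT. The median SD over all genes was 0.29. Of the 7 tested members, 6 lay above the 90th percentile and 5 above the 95th. The value of CRH rested on Prepuberty 1, and without that library it was 1.07 (97.5th percentile), below SST (1.72) and TRH (1.62). NPY was then at 0.84 (94.3rd percentile). Some other peptide and vesicle genes varied as much. Without Puberty 2 the SE of puberty versus prepuberty was 1.07 for TAC1 and 1.19 for CPE, beside 1.26 for SST and 0.63 for POMC. It was lower for others, such as NTS (0.33) and PAM (0.2).

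The mix of peptide transcripts also differed from ewe to ewe. Summed over the 10 genes, the level ran from 28.44 FPKM in Postpuberty 1 to 174 FPKM in Postpuberty 3. SST was the largest contributor in 6 libraries, with a share of up to 85.2% in Prepuberty 2. POMC led in Puberty 2 with 45.5% and in Postpuberty 1 with 61.3%. CRH led in Prepuberty 1 with 70.8%, although its median share was 4.11%. No stage had the same leading gene in all 3 of its libraries.

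**Figure D3:**
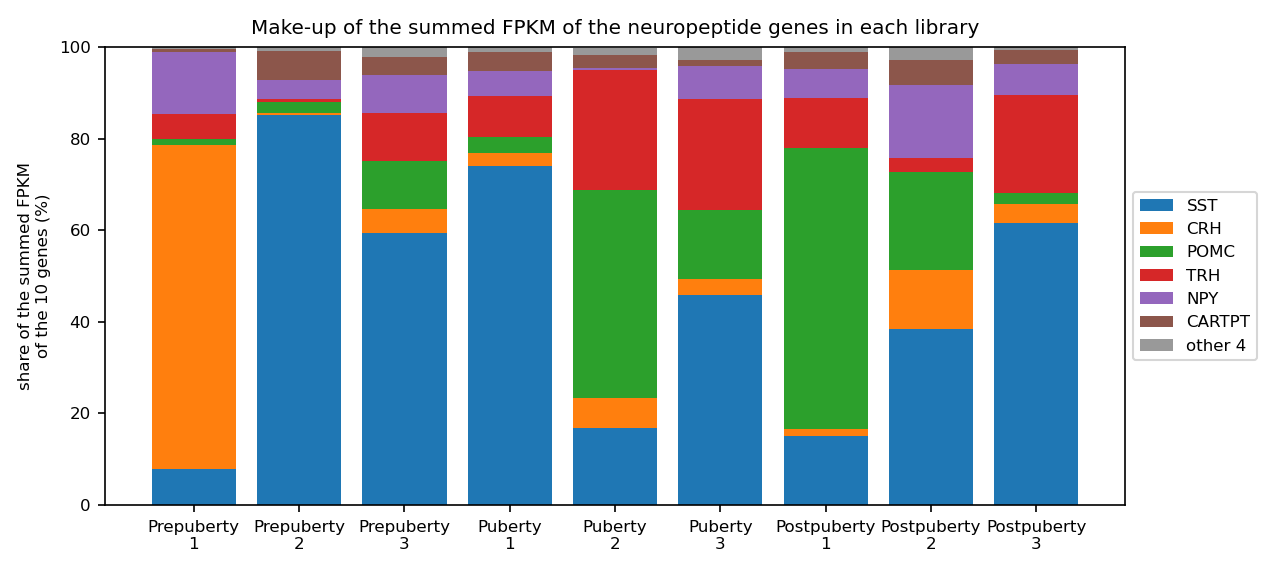
Stacked bars give, for each of the 9 libraries on the x axis, the share in percent of the summed FPKM of the 10 genes held by each gene. AGRP, HCRT, PMCH and GAL are drawn together as the other 4. SST fills most of Prepuberty 2 (85.2%), CRH most of Prepuberty 1 (70.8%) and POMC most of Postpuberty 1 (61.3%).

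Among the peptides that promote feeding, NPY lies on chromosome 4 (ARS-UI_Ramb_v3.0, chr4:73206687-73213568). It measured 22.7, 4.51 and 3.25 FPKM in Prepuberty 1 to 3. In Puberty 1 to 3 it measured 5.1, 0.222 and 6.13 FPKM, and in Postpuberty 1 to 3 it measured 1.78, 8.04 and 12 FPKM. Prepuberty 1 was the highest and Puberty 2 by far the lowest, and the 3 stages overlapped. The stage means were 10.2 ± 10.9, 3.82 ± 3.16 and 7.27 ± 5.16 FPKM (SD, n = 3). The log2 difference of puberty from prepuberty was -1.13 (SE 0.89, limma adjusted p = 0.838). It shrank to -0.32 without Puberty 2 and to -0.36 without Prepuberty 1. The curated transcript of NPY carried 61.3% to 79.7% of its FPKM in the other 8 libraries, but 14.0% in Puberty 2.

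AGRP, which encodes an antagonist of melanocortin receptors made by the same arcuate neurons, lies at chr14:34648565-34684140. Its level was 0.0496, 0.169 and 0.0821 FPKM at prepuberty and 0.0958, 0 and 0.083 FPKM at puberty. At postpuberty it was 0.0876, 0.105 and 0 FPKM. The gene was above 0 in 7 libraries and reached 0.5 FPKM in none, so no fold change is given. NPY and AGRP were not positively related across the 8 libraries (Pearson r = -0.51, exact permutation p = 0.183, adjusted p = 0.504 over 5 gene pairs, Spearman rho = -0.43, p = 0.299). Without the pair of libraries farthest from the NPY median, r was -0.65.

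PMCH, the precursor of melanin-concentrating hormone, lies at chr3:171587341-171588141. Its level was 0.4, 0 and 0.036 FPKM at prepuberty, 0.4, 0.232 and 0.699 FPKM at puberty, and 0, 0.148 and 0.086 FPKM at postpuberty. Every puberty library lay above every postpuberty library, while 2.07% of the tested genes were likewise lower at postpuberty in every library. The puberty mean was 0.444 FPKM, under the limit for testing. Without Puberty 2 it reached the limit through the puberty level alone, so no test of that difference is given, and 6.19% of genes were then separated in the same direction. All values but that of Puberty 3 were below 0.5 FPKM.

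HCRT, the orexin precursor that promotes wakefulness and feeding, lies at chr11:42033414-42034819. It measured 0.144, 0.794 and 0.646 FPKM at prepuberty, 0.4, 0.616 and 1.68 FPKM at puberty, and 0.164, 1.08 and 0.468 FPKM at postpuberty. Puberty 3 was the highest and the stages overlapped. Puberty differed from prepuberty by 0.28 (SE 0.32, limma adjusted p = 0.838) with the 9 libraries and by 0.37 (SE 0.37) without Puberty 2. Over single left-out libraries this difference ranged from 0.0 without Puberty 3 to 0.47 without Puberty 1. HCRT and PMCH neurons share the lateral hypothalamus, and the 2 genes had r = 0.35 across the 8 libraries (exact permutation p = 0.4, adjusted p = 0.504, rho = 0.12, p = 0.779), falling to -0.01 without the pair farthest from the HCRT median. GAL, the galanin gene at chr21:42493225-42498961, was above 0 in 6 libraries and highest in Postpuberty 3 at 0.579 FPKM. Its level was 0.179, 0 and 0.0606 FPKM at prepuberty, 0.113, 0 and 0 FPKM at puberty, and 0.072 and 0.0488 FPKM in Postpuberty 1 and 2.

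Among the peptides that restrain feeding, POMC had the smallest unadjusted p of the 7 tested members in the fit of 9 libraries, yet was not called. It encodes the precursor of α-MSH and β-endorphin in arcuate neurons, and of ACTH in the pituitary, and lies at chr3:32602210-32609334. POMC measured 2.09, 2.72 and 4.1 FPKM at prepuberty, 3.15, 22.4 and 12.8 FPKM at puberty, and 17.4, 10.7 and 4.37 FPKM at postpuberty. The 3 prepuberty libraries were uniformly low, and Puberty 2, Postpuberty 1, Puberty 3 and Postpuberty 2 formed the upper end. The stage means were 2.97 ± 1.03, 12.8 ± 9.65 and 10.8 ± 6.53 FPKM (SD, n = 3), and the puberty mean was 7.97 FPKM without Puberty 2.

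The POMC difference of puberty from prepuberty was 1.51 on the log2 scale (SE 0.65, 95% interval 0.04 to 2.97, limma adjusted p = 0.838), which was the 1 member difference to pass unadjusted in the fit of 9 libraries. Without Puberty 2 it was 0.96 (SE 0.63, limma adjusted p = 1.0) and no longer passed unadjusted. The value was 2.21 without Puberty 1 and 0.50 with array weights. Postpuberty exceeded prepuberty by 1.43 (SE 0.65, 95% interval -0.03 to 2.90, limma adjusted p = 1.0), and without Puberty 2 the same difference had an SE of 0.57 and passed unadjusted, again with an adjusted p of 1.0. Each postpuberty library lay above each prepuberty library, by 4.37 against 4.1 FPKM at the closest, which also held for 3.17% of all tested genes in that direction. This separation was lost when libraries were scaled to equal upper quartiles (4.16 against 4.44 FPKM) or to equal totals (4.37 against 4.67 FPKM).

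Since the pituitary also makes POMC, pituitary hormone genes were set beside it. PRL, the prolactin gene, measured 3.28, 0.0562 and 25.6 FPKM at prepuberty, 0.297, 2.65 and 77.8 FPKM at puberty, and 199.5, 74.4 and 8.46 FPKM at postpuberty. Among the 8 libraries, Postpuberty 1, Puberty 3 and Postpuberty 2 had the 3 highest values of POMC, of PRL and of the growth hormone gene GH (12.2, 7.76 and 2.83 FPKM). Puberty 2 had the highest POMC with a PRL of 2.65 FPKM. CGA, the gene for the shared hormone subunit, was also highest in Postpuberty 1, Postpuberty 2 and Puberty 3 (2.92, 2.47 and 1.25 FPKM). Over the 8 libraries POMC had r = 0.90 with PRL (exact permutation p = 0.00322, adjusted p = 0.00403, rho = 0.90, p = 0.00456), 0.95 with GH (exact permutation p = 0.000298, adjusted p = 0.00149, rho = 0.90, p = 0.00516) and 0.95 with CGA (exact permutation p = 0.00149, adjusted p = 0.00372, rho = 0.87, p = 0.00794), but -0.10 with LHB (exact permutation p = 0.818, rho = 0.17, p = 0.703). With the summed pituitary markers r was 0.90 (exact permutation p = 0.003, adjusted p = 0.00403, rho = 0.88, p = 0.00724). Without the pair of libraries farthest from the POMC median these 5 values were 0.81, 0.84, 0.96, -0.29 and 0.79. POMC fell into a set of 5 low and 3 high libraries among the 8, too few in each to test a relation within it, and the same holds for every correlation with POMC given here. The 3 prepuberty libraries were all among the 5 low ones, and stage means were not removed. LHB and PAX7 were distributed differently. The first, a gonadotropin subunit gene, was highest in Puberty 2 at 10.9 FPKM and was 0.802, 2.68 and 0 FPKM in Postpuberty 1, Puberty 3 and Postpuberty 2. PAX7, a factor of the intermediate lobe, was highest in Prepuberty 2 at 5.37 FPKM. The summed FPKM of the 9 matched pituitary markers was 5.51 to 30.9 at prepuberty, 0.749 to 89.6 at puberty and 14.4 to 216 at postpuberty. The pituitary factors POU1F1 and TBX19 and the hormone genes TSHB and FSHB stayed below 0.5 FPKM in all libraries, with TSHB listed at 0 throughout. The part of pituitary RNA in the POMC result was not tested, and the comparison with these genes was made after the values were seen. The adjusted p values cover these 5 relations only, so they describe these libraries and no conclusion is drawn from them.

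The level was also split differently among the POMC transcripts. The predicted transcript XM_042245192.2 measured 2.09, 0 and 3.8 FPKM at prepuberty, 0, 0 and 9.95 FPKM at puberty, and 17.2, 7.63 and 3.59 FPKM at postpuberty. It was at 0 in Prepuberty 2, Puberty 1 and Puberty 2, the 3 libraries with the lowest PRL, and made up 98.7% of POMC in Postpuberty 1. In Puberty 2, the curated transcript NM_001009266.1 measured 6.5 FPKM and the predicted transcript XM_042245193.2 measured 16.0 FPKM. StringTie divides reads shared by transcripts, so these shares are estimates. With the highest transcript alone, the difference of puberty from prepuberty was -0.15 in place of 1.51.

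**Figure D4:**
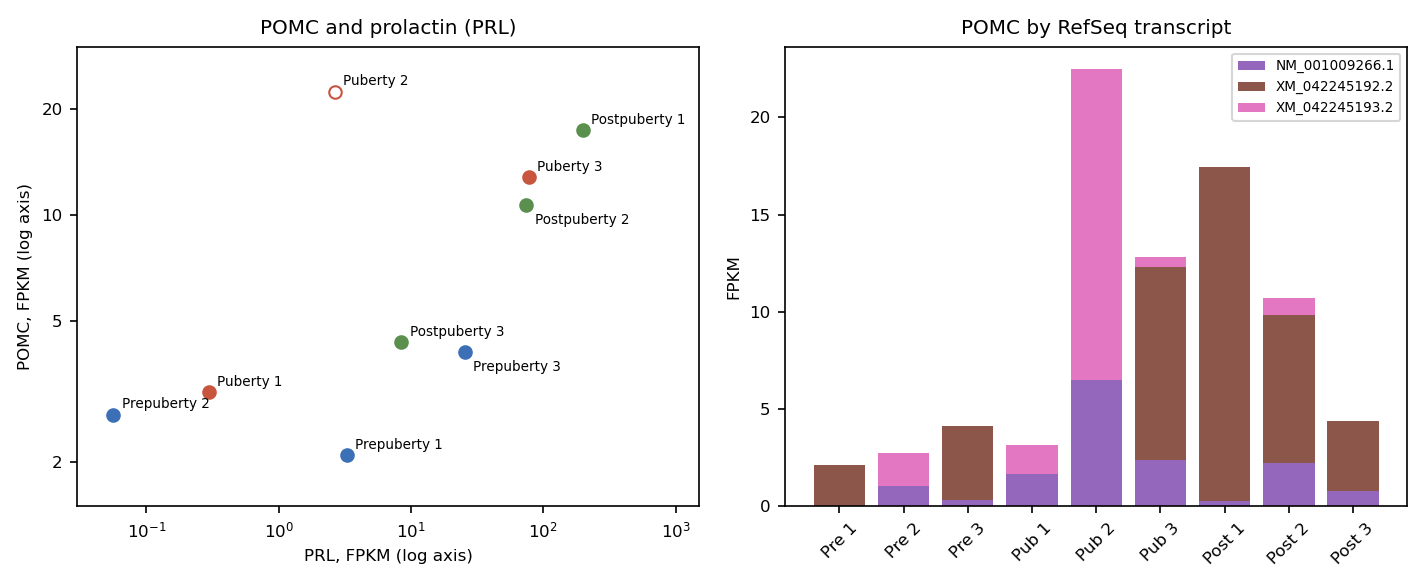
Left, POMC against PRL in each library, both in FPKM on log axes, with blue for prepuberty, red for puberty and green for postpuberty and the open circle for Puberty 2. Right, the FPKM of the 3 POMC transcripts stacked in each library. The library highest in PRL, Postpuberty 1, has 17.4 FPKM of POMC, while Puberty 2 has 22.4 FPKM of POMC at 2.65 FPKM of PRL.

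CARTPT, whose product CART reduces feeding and is made in POMC neurons among others, lies at chr16:9990183-9992265. It measured 0.996, 7.12 and 1.6 FPKM at prepuberty, 3.74, 1.33 and 1.14 FPKM at puberty, and 1.04, 2.78 and 5.37 FPKM at postpuberty. The highest library was Prepuberty 2, and each stage held both low and high libraries. The means of 3.24 ± 3.38, 2.07 ± 1.45 and 3.06 ± 2.18 FPKM (SD, n = 3) overlapped. The largest stage difference was 0.35 (SE 0.61, limma adjusted p = 0.825), postpuberty over puberty, and it was 0.20 (SE 0.71) without Puberty 2. CARTPT and POMC had r = -0.43 across the 8 libraries (exact permutation p = 0.269, adjusted p = 0.504, rho = -0.21, p = 0.619), and 0.06 without the pair farthest from the POMC median. AGRP and POMC, the opposing melanocortin ligands, had r = 0.03 (exact permutation p = 0.938, adjusted p = 0.938, rho = 0.02, p = 0.977), and 0.53 without the pair farthest from the AGRP median.

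Of the releasing-hormone group, SST was the most abundant. SST encodes somatostatin, which is also made by interneurons outside the hypothalamus, and lies at chr1:200453333-200454581. It measured 13.1, 95.4 and 23.4 FPKM at prepuberty, 67.3, 8.34 and 39.2 FPKM at puberty, and 4.27, 19.3 and 107 FPKM at postpuberty. Both the highest and the lowest library were postpuberty ewes, a 25.1-fold span, and the stage means of 43.9 ± 44.8, 38.3 ± 29.5 and 43.6 ± 55.5 FPKM (SD, n = 3) differed by far less than that. The difference of puberty from prepuberty was -0.12 (SE 1.17, limma adjusted p = 0.975) and turned to 0.71 without Puberty 2 (adjusted p = 1.0).

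TRH, the thyrotropin-releasing hormone gene at chr19:55837606-55862675, measured 8.93, 0.824 and 4.11 FPKM at prepuberty. It measured 8.11, 12.9 and 20.7 FPKM at puberty and 3.13, 1.54 and 36.8 FPKM at postpuberty. Postpuberty 3 was the highest and Prepuberty 2 the lowest, and Puberty 1 lay just below Prepuberty 1, so the stages overlapped. The difference of puberty from prepuberty was 1.63 (SE 0.98, 95% interval -0.58 to 3.84, limma adjusted p = 0.838) and 1.64 without Puberty 2 (SE 1.19). Over single left-out libraries it ranged from 0.98 without Prepuberty 2 to 2.20 without Prepuberty 1. The postpuberty mean of 13.8 ± 19.9 FPKM rested on Postpuberty 3.

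CRH, the corticotropin-releasing hormone gene at chr9:43496263-43571871, measured 118, 0.392 and 2.06 FPKM at prepuberty, 2.47, 3.16 and 2.99 FPKM at puberty, and 0.464, 6.45 and 7.14 FPKM at postpuberty. Prepuberty 1 was 16.5 times as high as the next library, and without it the mean of the other 8 was 3.14 ± 2.49 FPKM (SD, n = 8). The prepuberty mean of 40.0 ± 67.2 FPKM became 1.23 FPKM without that ewe. Puberty differed from prepuberty by -1.04 (SE 1.43, limma adjusted p = 0.841) and by -1.10 without Puberty 2 (SE 1.76), but by 0.90 without Prepuberty 1. The 3 puberty libraries agreed closely, at 2.87 ± 0.357 FPKM. In Prepuberty 1 the summed markers of microglia (343 FPKM), astrocytes (7108 FPKM) and oligodendrocytes (14353 FPKM) were each the highest of all libraries, while the neuron markers (627 FPKM) were above only Puberty 2 and Postpuberty 1. SOCS3, a gene induced by cytokines and leptin, was also highest there (4.49 FPKM). Their part in the CRH value was not tested.

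Pairs of members were compared across the 8 libraries. TRH and CRH had r = 0.36 (exact permutation p = 0.403, adjusted p = 0.504, rho = 0.67, p = 0.0831), and 0.20 without the pair farthest from the TRH median. Over all 45 pairs, a family computed after the levels were seen, 1 pair passed an adjusted p of 0.05. NPY and CRH had r = 0.91 (exact permutation p = 0.000918, adjusted p = 0.0413, rho = 0.93, p = 0.00223, adjusted p = 0.1). Without the pair farthest from the NPY median, r was 0.79. Prepuberty 1 was the highest library for both genes. CARTPT and SST had r = 0.82 (exact permutation p = 0.0141, adjusted p = 0.158, rho = 0.86, p = 0.0107). AGRP was inversely related to GAL (r = -0.85, exact permutation p = 0.00511, adjusted p = 0.115, rho = -0.67, p = 0.077) and to TRH (r = -0.83, exact permutation p = 0.00868, adjusted p = 0.13, rho = -0.83, p = 0.0154), but AGRP and GAL were at the lowest measured levels. Without the pair of libraries farthest from the median of the first gene, r was 0.63, -0.61 and -0.45 for these 3 pairs.

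The amount of neuronal RNA also varied, and it was set beside each member. The summed FPKM of the 8 matched neuron markers, such as SNAP25, ran from 433 in Postpuberty 1 to 1763 in Postpuberty 3 among the 8 libraries. CARTPT (r = 0.81, exact permutation p = 0.0145, adjusted p = 0.073 over 10 relations, rho = 0.90, adjusted p = 0.0456) and SST (r = 0.80, exact permutation p = 0.0146, adjusted p = 0.073, rho = 0.69, adjusted p = 0.347) had the highest r over the 8 libraries. HCRT had r = 0.58 and the other 7 members had r between -0.35 and 0.35. The order changed when libraries were left out. Without the pair of libraries farthest from the median of each gene, r was 0.79 for CARTPT and 0.67 for SST, but 0.86 for CRH, which had -0.35 before, and 0.81 for HCRT. The summed oligodendrocyte markers were 6204 to 14353 FPKM. The part of neuron content in the stage results was not tested.

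For each member, the genes with the most similar pattern were named from up to 11418 genes with a mean of at least 1 FPKM, by Pearson r over the 8 libraries and with no test. With so many genes and 8 points, high values arise readily. Genes close to NPY were OST4 (r = 0.927) and MAGOH (0.923), and CRH was closest to OST4 (0.958), SNRNP35 (0.946) and TGFBR2 (0.941). All 3 genes named for CRH were highest in Prepuberty 1 among the 8 libraries, the library in which CRH stood far above the rest. POMC was closest to ZNF175 (0.966), ST8SIA5 (0.951) and CADPS2 (0.948), a gene for a factor that primes dense-core vesicles for release. TRH was closest to MVK (0.975) and to the neighbouring membrane protein genes TMEM176B (0.963) and TMEM176A (0.953).

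SST was closest to UGGT1 (0.972), ESYT1 (0.95) and RNLS (0.948), and CARTPT to RAPH1 (0.963), TAB3 (0.962) and DOP1B (0.951). HCRT was closest to ARPP21 (0.937), FRS3 (0.932) and FADS6 (0.931). Of the low members, AGRP was close to MACROD2 (0.965) and SIRT5 (0.96), PMCH was closest to SFRP5 (0.965), CLEC1A (0.923) and C3H2orf81 (0.917), and GAL to YKT6 (0.971), DNASE1L1 (0.964) and STAT2 (0.945). With Puberty 2 added, r stayed above 0.9 for MACROD2 with AGRP (0.96), RNLS with SST (0.902), TMEM176B and TMEM176A with TRH (0.937 and 0.92), SFRP5 with PMCH (0.962) and DNASE1L1 with GAL (0.942). For the other genes named it lay between -0.088, for SIRT5 with AGRP, and 0.82, for OST4 with CRH, and the 3 genes named for POMC had 0.076, 0.413 and 0.362.

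The receptors of these peptides were far less abundant than the leading ligands. Of 21 receptor genes listed, 19 were matched and 11 were tested, and the highest mean of the 9 libraries was 2.14 FPKM, for the somatostatin receptor SSTR1. It was followed by CRHR1 at 1.53, NPY1R at 1.48, MCHR1 at 1.41, and NPY5R and SSTR2 at 1.15 FPKM each. SSTR3 had 0.951, HCRTR1 0.86, GALR3 0.693 and MC4R, the receptor through which POMC peptides restrain feeding, 0.523 FPKM. MCHR2 was listed at 0 in every library. MCHR1 thus exceeded its ligand gene PMCH, whose highest library had 0.699 FPKM, in mean level.

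None of the 11 receptors was called in any comparison (0.0% of all genes). SSTR3 measured 0.396, 0.256 and 0.65 FPKM at prepuberty, 1.33, 0.475 and 0.774 FPKM at puberty, and 1.65, 1.62 and 1.4 FPKM at postpuberty. Every postpuberty library lay above every library of the other stages, as for 5.25% of all genes against puberty and 3.17% against prepuberty. The closest values were 1.4 against 1.33 FPKM for puberty and 1.4 against 0.65 FPKM for prepuberty. This separation was not checked with scaled libraries. The difference of postpuberty from prepuberty was 0.84 (SE 0.23, limma adjusted p = 1.0). CRHR2, a receptor for CRH and urocortins, measured 0.924, 0 and 1.56 FPKM at puberty and at most 0.128 FPKM in the other stages. It reached the limit for testing through its puberty level alone, so no test of that difference is given. The choroid plexus gene TTR was 255, 554 and 7594 FPKM in the same puberty libraries. It was 723 FPKM in Postpuberty 3 and 337 FPKM in Prepuberty 1, where CRHR2 was 0.128 and 0.0678 FPKM. The part of choroid plexus in the CRHR2 values was not tested.

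**Figure D5:**
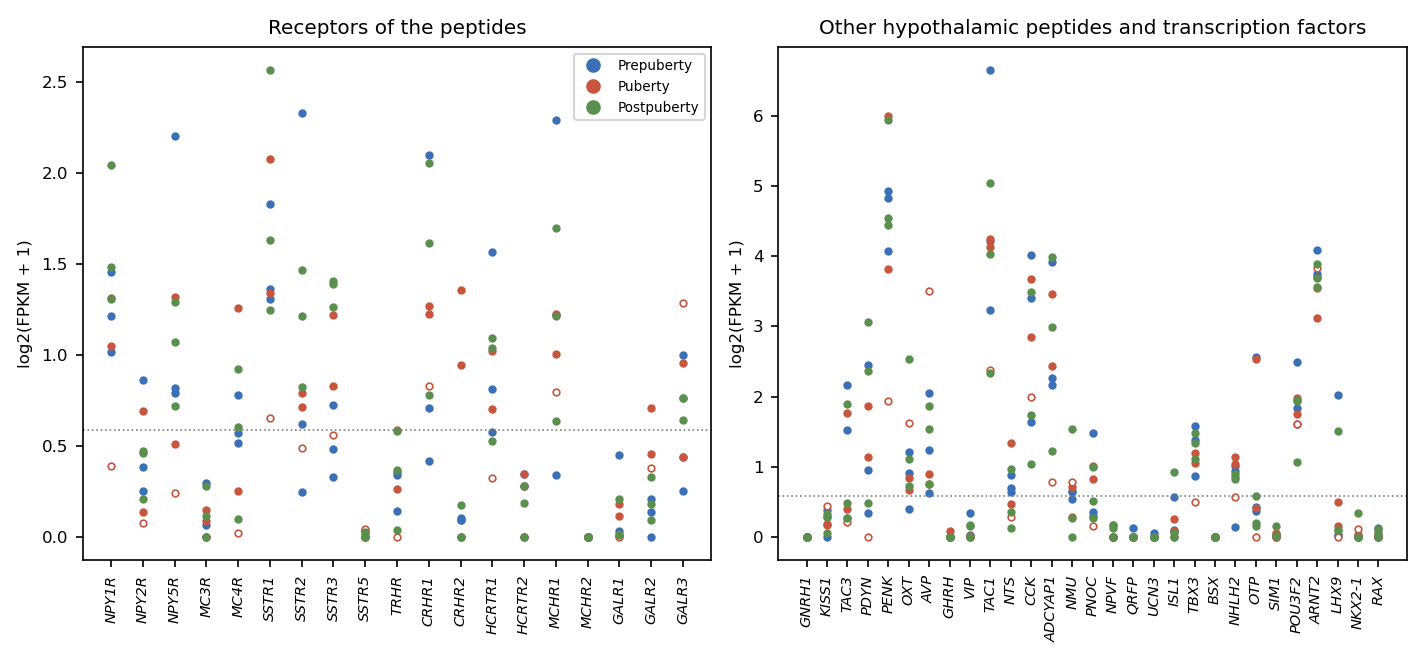
Each column is a gene and each point a library, with log2(FPKM + 1) on the y axis, coloured by stage and open for Puberty 2, and the dotted line marks 0.5 FPKM. The left panel holds the 19 receptors and the right panel the other hypothalamic peptides and transcription factors. SSTR1 has the highest receptor mean (2.14 FPKM), and GNRH1, BSX and MCHR2 lie at 0 in every library.

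Genes that process peptides and build dense-core vesicles were abundant. All 13 matched genes of 14 listed were tested, with means from 2.41 to 253 FPKM, and 0 were called. CADPS2 measured 1.33, 1.48 and 1.22 FPKM at prepuberty, 1.93, 0.688 and 3.91 FPKM at puberty, and 4.93, 4.0 and 2.23 FPKM at postpuberty. Its postpuberty libraries lay above all prepuberty libraries, as for 3.17% of all genes, by 0.97 in the mean (SE 0.40, limma adjusted p = 1.0). CPE, the carboxypeptidase that trims cut precursors, measured 188 and 213 FPKM in Postpuberty 1 and 2 but 13.7 FPKM in Postpuberty 3, and its difference from puberty was 1.75 (SE 1.04, limma adjusted p = 0.78), or 1.19 without Puberty 2.

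Among 18 matched other hypothalamic peptides, 11 were tested and 0 were called. PENK (mean 28.4 FPKM) and TAC1 (24.0 FPKM) were the most abundant, and among the members only SST had a higher mean (41.9 FPKM). KISS1, the kisspeptin gene, reached at most 0.36 FPKM. OXT and PDYN had the smallest p of this list. For OXT, postpuberty lay over prepuberty by 0.61 (SE 0.48, limma adjusted p = 1.0). Its level was 4.81 FPKM in Postpuberty 2 but 1.15 and 0.65 FPKM in Postpuberty 1 and 3, beside 0.889, 0.319 and 1.32 FPKM at prepuberty. For PDYN, postpuberty lay over puberty by 0.97 (SE 0.77, limma adjusted p = 0.78), or by 0.47 without Puberty 2.

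Of 11 transcription factors that specify these neurons, 6 were tested and 0 called. OTP, required for several neuroendocrine neurons, was 4.91 FPKM in Prepuberty 3 and 4.78 FPKM in Puberty 1 but at most 0.494 FPKM elsewhere. ARNT2, the partner of SIM1, had a mean of 12.1 FPKM and TBX3 of 1.30 FPKM, and their largest stage differences were -0.35 (SE 0.26) and 0.39 (SE 0.28), or -0.51 and 0.18 without Puberty 2. ISL1, a factor of arcuate neurons, had a mean of 0.200 FPKM.

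The 5 genes for peptide degradation and binding were all tested, with means from 0.757 to 7.33 FPKM, and 0 were called. TRHDE, which degrades TRH, differed between puberty and prepuberty by -0.37 (SE 0.27, limma adjusted p = 0.838), or -0.20 without Puberty 2. DPP4 differed between postpuberty and puberty by 0.63 (SE 0.52, limma adjusted p = 0.78), or 0.44 without Puberty 2. It was 3.53 FPKM in Postpuberty 1 but 0.178 and 1.11 FPKM in Postpuberty 2 and 3, beside 0.308, 0.0972 and 1.1 FPKM at puberty. Of 6 genes that carry metabolic signals to arcuate neurons, 4 were tested and 0 called. The leptin receptor gene LEPR was above 0 in 1 library, while the insulin receptor gene INSR had a mean of 3.96 FPKM. INSR differed between puberty and prepuberty by -0.44 (SE 0.27, limma adjusted p = 0.838), or by -0.29 without Puberty 2. GLP1R, the receptor gene for a glucagon-like peptide, reached the limit for testing through its prepuberty level alone (mean 0.643 FPKM, against 0.205 and 0.207 FPKM), so no test is given.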

How the data were processed

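Poly(A) RNA of 9 hypothalami was sequenced, 1 library per ewe. Per the labels and the study's methods, reads were trimmed with Trimmomatic, aligned with HISAT2 to the sheep genome ARS-UI_Ramb_v3.0 and quantified per transcript with StringTie. The deposited values are FPKM as the authors' StringTie run gave them, although the table is described as raw counts, so no count test was run. FPKM give no read count per gene, so no counting interval is given. Of 76684 rows of annotated RefSeq transcripts, 76682 were matched to a gene of the RefSeq table of the same build and summed per gene, giving 21284 genes. Transcripts assembled by the authors without a RefSeq name were not assigned to genes, so reads placed on them are missing from these sums. The coordinates are those of the same table.

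Genes with a mean of at least 0.5 FPKM in 1 stage or more were fitted as log2(FPKM + 1) with limma 3.58.1 in R 4.3.3 (stage as the only term, empirical Bayes with a mean-variance trend, two-sided, Benjamini-Hochberg). Log2 differences are on this scale and understate the change of low genes. Positive values mean higher in the stage named first. A gene was called at an adjusted p below 0.05 and a log2 difference of at least 1. Correlations over the 8 libraries used exact permutation of all 40320 orders, two-sided, with ranks from scipy 1.17.1. Stage means were not removed before correlation, so differences between stages enter r and p. For a single gene, an exact permutation test of 3 against 3 libraries cannot give a two-sided p below 0.1, so none was used. The scripts were tested on simulated data. The replicates are separate ewes.

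The members, the further gene lists and the marker lists were chosen with earlier results of these data known. All 10 members are named, with the 2 genes of smallest p from each further list, receptors by level, and the 3 genes most like each member, some of which are not reported here. Other genes, such as PRL, GH, CGA, LHB, PAX7, CRHR1, OTP, SOCS3 and PENK, were named after their values were seen. Alternatives were upper-quartile and total scaling, a pseudocount of 0.1, no filter, a replicate block, array weights, no trend, only the transcript with the highest mean, and each library left out.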

Additional observations from a re-analysis of the deposited data

How the results depend on the processing

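No member was called under any of 17 alternative fits, and the smallest adjusted p of a member in them was 0.528 (limma). Of 357 refitted member differences, 35 changed sign. No alternative changed the sign for puberty versus prepuberty of TRH, postpuberty versus puberty of NPY or TRH, or postpuberty versus prepuberty of POMC. The HCRT difference of puberty from prepuberty was not reversed either, but it fell to 0.0 without Puberty 3. Array weights called 4 genes for puberty versus prepuberty and 1 for postpuberty versus puberty, where equal weights called 0, and gave for puberty versus prepuberty 0.50 (POMC), 0.36 (NPY), 0.34 (CARTPT) and 1.09 (SST), for postpuberty versus puberty 0.43 (POMC), and for postpuberty versus prepuberty 0.69 (NPY), 0.31 (SST), 0.42 (CRH) and -0.07 (HCRT). With the highest POMC transcript alone, puberty versus prepuberty was -0.15 and postpuberty versus puberty was 2.01, and equal totals gave 0.12 for the latter. With all 9 libraries, r was 0.06 for NPY with AGRP and -0.28 for AGRP with POMC. The cause of these changes was not tested. Under both scalings, tried after seeing the data, the number of members whose postpuberty and prepuberty libraries do not overlap was 0 in place of 1. Equal totals moved the median of all genes to -0.28 for puberty versus prepuberty, against -0.14.

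Leaving out 1 library at a time gave sign changes in these ranges of the log2 difference. For puberty versus prepuberty they were -0.68 to 0.33 (CARTPT), -0.73 to 0.71 (SST) and -2.30 to 0.90 (CRH). For postpuberty versus puberty they were -0.78 to 0.47 (POMC), -0.05 to 0.77 (CARTPT), -1.51 to 0.67 (SST), -0.23 to 1.01 (CRH) and -0.48 to 0.02 (HCRT). For postpuberty versus prepuberty they were -0.73 to 0.51 (NPY), -0.33 to 0.68 (CARTPT), -1.63 to 0.55 (SST), -0.48 to 1.47 (TRH), -2.09 to 1.11 (CRH) and -0.20 to 0.22 (HCRT).

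The replicates are separate ewes, and the labels name no pairing across stages. Of 9 same-number pairs of libraries, 2 deviated together with r over 0.1, in a range of -0.31 to 0.51, and 3 libraries correlated best with their own number. With so few libraries, these values cannot settle whether libraries of the same number share a batch. With the replicate number as a block, 0 genes were called in each comparison, as without the block.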
